A study of Rattus norvegicus with 105 samples.

Results

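Transcript levels in rat frontal cortex were compared directly between 2 antipsychotic drugs, clozapine and haloperidol, each at the level the labels call high. The 17 arrays were chosen by their labels alone, 8 for high clozapine and 9 for high haloperidol, of 105 Affymetrix rat arrays in the series. Vehicle arrays did not enter the difference between the drugs, but with the other groups they entered its normalisation, filter and residual spread. The series describes the drugs as given chronically, and its neuroleptic experiment held 63 arrays in 7 groups: vehicle and 3 levels of each drug. Its other 42 arrays belong to experiments on the ventral hippocampus, lesioned or disrupted with tetrodotoxin, with their shams. Amounts, strain, sex, age and length of treatment were not given in the sources used here, so the word high does not state matched doses of the drugs. The labels do not say that each array came from its own animal, and so the spread that the p-values rest on may be partly technical.

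Haloperidol is a typical antipsychotic that blocks dopamine D2 receptors strongly. Clozapine, an atypical one, binds D2 more weakly and also blocks serotonin, muscarinic, histamine and adrenergic receptors. Frontal cortex receives dopamine fibres from the midbrain and holds excitatory projection neurons, GABAergic interneurons, glia and vessels. An array of whole tissue averages over all of them, and fewer cells of a type cannot be told apart from less RNA per cell.

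All differences below are high clozapine minus high haloperidol on the log2 scale unless another pair is named, so that 1 unit is a doubling. The test was limma's moderated test in a fit over the 63 arrays, and p-values were adjusted by the Benjamini-Hochberg method across 18625 probe sets. A call is an adjusted p under 0.05. Errors of differences are standard errors (SE) and those of group levels are standard deviations (SD). Where several probe sets share a symbol, the one with the highest mean level stands for the gene, and 10128 genes were tested.

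The tissue label could be checked on cortical markers. The synaptic gene Snap25 was at 16.7 with either drug, the vesicular glutamate transporter Slc17a7 at 14.97 with clozapine and 14.88 with haloperidol, and the cortical transcription factor Tbr1 at 11.12 and 11.00. Deposited intensities had array medians from 795 to 938 over the 17 arrays. The leading axis of variation followed sample numbers more than groups. Of the variance of the 63 arrays, 23.1% lay on the first principal component. Each title carries a sample number, and 4 blocks of numbers that each open with a vehicle array accounted for 69.8% of that component, the 7 groups for 8.56%. What the numbers stand for is not stated. The blocks held 2, 2, 4 and 0 clozapine and 2, 2, 0 and 5 haloperidol arrays. A division into 3 stretches of adjoining numbers, cut where the component was seen to jump, held 2, 4 and 2 clozapine arrays and 2, 2 and 5 haloperidol arrays.

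The signal of the beta-actin 3′ probe set over its 5′ probe set, a common sign of RNA or labelling quality, differed between the drugs. It was at a log2 ratio of 0.94 ± 0.14 (SD, n = 8) on clozapine arrays and 1.12 ± 0.14 (SD, n = 9) on haloperidol arrays (exact two-sided permutation p = 0.0220, 1 of 2 such tests). All permutation tests given here exchanged arrays freely across number blocks and stretches, which the drugs fill unevenly. Their p-values therefore do not separate drug from sample number. Haloperidol replicates 7 and 8 had the highest ratios, 1.34 and 1.33, and the lowest mean correlations with the other arrays, 0.959 and 0.950 against a median of 0.973. The same ratio for Gapdh was 0.048 ± 0.058 (SD, n = 8) and 0.078 ± 0.054 (SD, n = 9), with replicates 7 and 8 at 0.022 and 0.038, below the haloperidol mean. Clozapine replicate 2 had the highest beta-actin ratio of its group, 1.19, and went against its label: its profile, centred on the 17 arrays, correlated at -0.54 with the mean of the other clozapine arrays and at 0.21 with the haloperidol mean. Haloperidol replicates 3 and 4 had weaker correlations of the same signs, at -0.46 and -0.38 with their own group and 0.14 and 0.062 with clozapine. They are the 2 haloperidol arrays of the second stretch, which holds 4 clozapine arrays. In all, 6 of the 17 arrays correlated more with the other group than with their own. The other 3 were clozapine replicates 7 and 8 and haloperidol replicate 2, which correlated below 0 with both groups. Clozapine replicates 7 and 8 lie in the third stretch beside 5 haloperidol arrays. How far these correlations follow number stretch instead of drug was not tested. The count of calls, Ccn2 and the gene lists are also given without clozapine replicate 2, and the first 2 of these without haloperidol replicates 7 and 8.

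**Figure D1:**
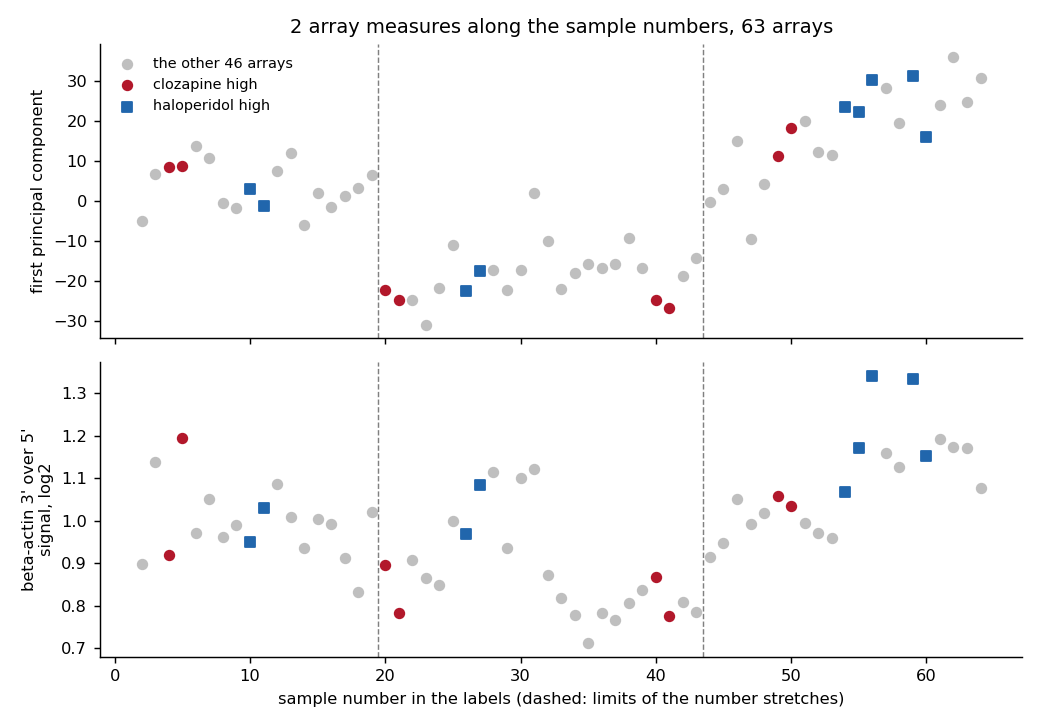
The first principal component (top, arbitrary units) and the log2 ratio of beta-actin 3′ to 5′ signal (bottom) are plotted against the sample number of each of the 63 arrays, with the 8 clozapine high arrays as red circles, the 9 haloperidol high arrays as blue squares and the other 46 arrays in grey. The component jumps at the dashed limits of the number stretches, and haloperidol replicates 7 and 8 have the highest ratios, 1.34 and 1.33.

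Ccn2 was the 1 probe set called, 0.00537% of those tested, and it was higher with clozapine. The gene encodes connective tissue growth factor, a secreted matrix-associated protein of vessel and connective tissue cells that in cortex also marks neurons of the deepest layer. Its 250 bases before the transcription start are shown because it is the 1 gene past the threshold. They lie on the minus strand at chr1:22624615-22624864 of GRCr8, from RefSeq, and are upstream of the first exon. Capitals mark GGAATG, the letters bound by TEAD factors, known regulators of Ccn2.

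Ccn2: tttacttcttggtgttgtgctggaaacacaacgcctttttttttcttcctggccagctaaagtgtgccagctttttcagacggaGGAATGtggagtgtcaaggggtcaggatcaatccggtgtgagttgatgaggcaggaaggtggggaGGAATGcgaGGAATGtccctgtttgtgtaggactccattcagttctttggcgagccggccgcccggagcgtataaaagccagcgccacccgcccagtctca

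GGAATG stood at 3 places on the strand of the gene, starting 166, 101 and 92 bases before the start. On either strand (CATTCC on the other) 12.1% of 33469 RefSeq promoter windows of this length held the letters at least once. At least 3 places were found in 27 windows, 0.0807% of them. A match describes the letters and is not a measured site.

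Clozapine arrays held Ccn2 at 12.29, 12.71, 12.20, 12.25, 12.67, 12.27, 12.38 and 12.37, in replicate order. Haloperidol arrays held it at 11.88, 11.59, 11.96, 12.11, 11.74, 11.85, 11.63, 12.11 and 11.68. The lowest clozapine array lay above the highest haloperidol array, and clozapine replicates 2 and 5 were the highest of the 17. The means of 12.39 ± 0.19 (SD, n = 8) and 11.84 ± 0.19 (SD, n = 9) differed by 0.55 ± 0.10, or 1.47-fold (limma, adjusted p = 0.0330). An exact two-sided permutation test over the 17 arrays, 1 of 19 genes so tested, gave p = 0.000123, where the smallest possible is 4.11e-05. That test took no account of number blocks or stretches. In a fit of the 17 arrays alone the difference was the same, but the call was not kept (limma adjusted p = 0.264). Without the filter on dim probe sets it was not kept either (limma adjusted p = 0.0751). The call was also lost with number stretches as a term (0.51, limma adjusted p = 0.0922), number blocks as a term (0.49, limma adjusted p = 0.498) or the beta-actin ratio as a covariate (0.56, limma adjusted p = 0.126). Within stretches the difference was 0.77, 0.31 and 0.57. Leaving out single arrays kept it between 0.51 and 0.59 but ended the call in 8 of 17 cases, with limma adjusted p-values from 0.055 to 0.151. These arrays were clozapine replicates 5, 7 and 8 and haloperidol replicates 2, 5, 6, 7 and 9. Without haloperidol replicates 7 and 8 together it was 0.56 (limma adjusted p = 0.0793), and 0 probe sets were called.

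High clozapine had the highest mean level of Ccn2 among the 7 groups of the experiment. Vehicle was at 11.79 ± 0.14 (SD, n = 9), low clozapine at 11.91 ± 0.18 (SD, n = 10) and medium clozapine at 11.97 ± 0.17 (SD, n = 9). Low, medium and high haloperidol were at 12.06 ± 0.27, 11.88 ± 0.32 and 11.84 ± 0.19 (SD, n = 9 each). In order of level, each of these 6 means lay within 1 SD of the next. Low haloperidol came nearest to high clozapine, and its highest array, at 12.36, lay inside the clozapine high range. Clozapine minus haloperidol was 0.08 ± 0.10 at medium and -0.15 ± 0.099 at low. Against vehicle, Ccn2 was also the 1 probe set called for high clozapine (0.00537%), at 0.60 ± 0.10 (limma adjusted p = 0.00545), while high haloperidol was at 0.05 ± 0.10. The 2 comparisons with vehicle share their vehicle arrays, and the first shares its clozapine arrays with the direct contrast.

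**Figure D2:**
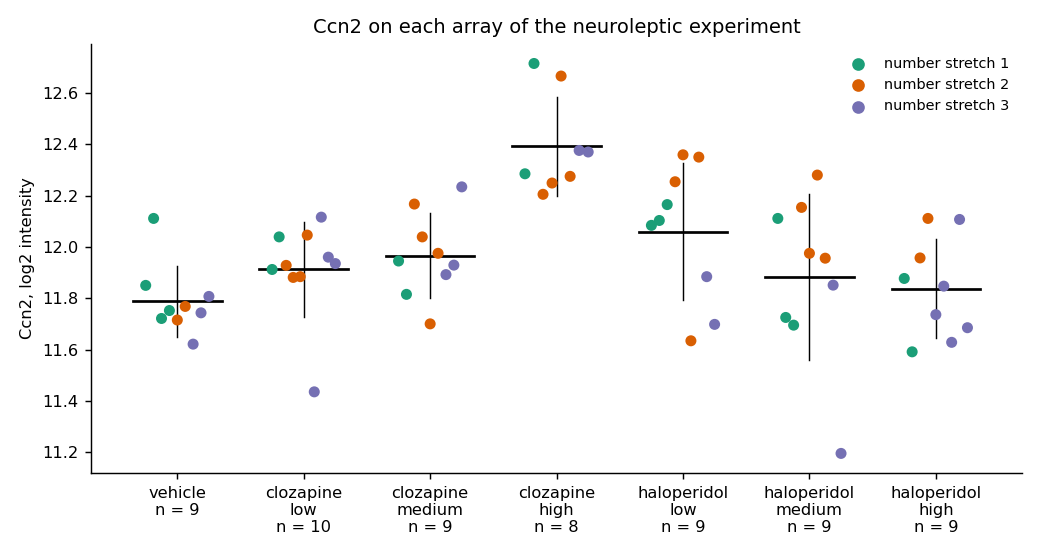
Each point is the log2 intensity of Ccn2 on 1 array, in the 7 groups of the neuroleptic experiment, coloured by number stretch; the horizontal line is the group mean and the vertical line 1 SD to each side. The 8 clozapine high arrays all lie above the 9 haloperidol high arrays, and their mean of 12.39 is the highest of the 7.

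Markers of vessels, blood and deep layers were read beside Ccn2, since cells of several kinds make its transcript. Of 18 endothelial and mural markers tested, 16 were above 0, 5 of them at an unadjusted p under 0.05, with a median of 0.098. Over all genes tested, 58.5% were above 0, and 7.06% reached that p on the clozapine side. Their mean level per array, relative to the 63 arrays, ran from -0.085 to 0.21 with clozapine and from -0.64 to 0.15 with haloperidol. Both blood markers that were tested were above 0. Among 18 markers of cortical layers and projection neurons 9 were above 0, with a median of 0.0024. Some of the deep-layer genes in that list were Etv1 at 0.19, Pcp4 at 0.13, Fezf2 at 0.05, Tle4 at -0.01, Nr4a2 at -0.01, Bcl11b at -0.03 and Foxp2 at -0.07. Tbr1, also in the list, was at a level of 11.12 with clozapine and 11.00 with haloperidol. The part of vessel, blood or deep-layer content in the Ccn2 result was not tested.

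Over all probe sets, 12% reached an unadjusted p under 0.05 at the high level, 1228 (6.59%) on the side of clozapine and 1001 (5.37%) on that of haloperidol. The medium comparison had 0 calls, while 1166 (6.26%) reached an unadjusted p under 0.05, 3.72% above and 2.54% below 0. The low comparison had 0 calls as well, and 493 (2.65%) reached that p. The difference between the high comparison and the mean of the lower ones had 0 calls in limma, and 710 (3.81%) reached that p, 2.07% above and 1.74% below 0. Number blocks as a term left 0 calls and 927 (4.98%) at that p, and number stretches 0 calls and 1874 (10.1%). The beta-actin ratio as a covariate left 0 calls and 896 (4.81%) at that p. Leaving out haloperidol replicates 7 and 8 gave 0 calls and 1436 (7.71%).

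The arrays of the drugs did not overlap for 3 probe sets higher with clozapine (0.0161%) and 1 lower (0.00537%). Beside Ccn2 the higher ones were a probe set of the zinc finger protein gene Zpr1 (0.69 ± 0.16, limma adjusted p = 0.0865) and Aco1, the cytosolic aconitase that doubles as an iron sensor (0.21 ± 0.069, limma adjusted p = 0.216). The lower one was Tmco3, a membrane transporter-like gene (-0.32 ± 0.12, limma adjusted p = 0.269). These 3 were named after their values were seen.

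Besides Ccn2, the 11 genes of smallest p on the clozapine side had differences from 0.20 to 1.18, and none was called (limma adjusted p up to 0.126). They were named because of these p-values, so their differences describe the choice. Mfsd4a, a membrane transporter of the major facilitator family, ran from 13.33 to 13.59 with a median of 13.43 under clozapine, and from 13.03 to 13.37 with a median of 13.23 under haloperidol. Its ranges met only at their ends. The difference was 0.22 ± 0.048 (limma adjusted p = 0.0777), and it was alike in the 3 stretches, at 0.22, 0.21 and 0.22.

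Fdft1, squalene synthase, the first enzyme given over to sterol synthesis, ran from 12.82 to 13.14 (median 12.96) with clozapine and from 12.61 to 12.92 (median 12.78) with haloperidol. The ranges overlapped narrowly, and the difference was 0.20 ± 0.050 and above 0 in each stretch. Bckdk, the kinase that brakes the breakdown of branched-chain amino acids, ran from 11.69 to 12.09 (median 11.89) and from 11.43 to 11.79 (median 11.61), a difference of 0.28 ± 0.070. Epb41, which ties the spectrin skeleton to the cell membrane, ran from 10.20 to 10.91 (median 10.71) and from 9.77 to 10.49 (median 10.31). Clozapine replicate 2 was its lowest clozapine array. The difference of Epb41 was 0.43 ± 0.097, and its other probe set gave 0.32 ± 0.12.

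Genes of neuropeptides and other signals stood among them too. Adcyap1 encodes PACAP, a neuropeptide that raises cyclic AMP. It ran from 11.49 to 11.93 (median 11.80) with clozapine and from 10.93 to 11.80 (median 11.20) with haloperidol, where replicate 4 was the highest. The difference was 0.48 ± 0.12, and 0.33 ± 0.21 for its second probe set. Nppc, the precursor of C-type natriuretic peptide, ran from 9.42 to 10.24 (median 9.95) and from 8.91 to 9.64 (median 9.53), a difference of 0.55 ± 0.14 that was 0.88, 0.56 and 0.17 in the 3 stretches.

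Cirbp, a cold-inducible RNA-binding protein, had the widest gap of the leading genes, 1.18 ± 0.31. Under clozapine 7 arrays lay from 12.24 to 12.51, and replicate 2 was at 9.90. Haloperidol arrays ran from 9.68 to 12.23 with a median of 10.95. The difference turned between stretches, from -0.58 in the first, which holds clozapine replicate 2, to 1.10 and 1.96. The other 2 probe sets of Cirbp gave 0.86 ± 0.24 and 0.32 ± 0.11. Bcl11a, a zinc finger transcription factor of cortical neurons (0.36 ± 0.084), also turned in the first stretch (-0.04), and its other probe set gave 0.07 ± 0.087. Plpp7 of the phospholipid phosphatase family (0.26 ± 0.064), the stress granule protein gene Ubap2l (0.27 ± 0.067) and the glucosidase gene Ganc (0.55 ± 0.13) kept 1 direction in the 3 stretches. The other probe set of Ganc, however, gave -0.08 ± 0.13.

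**Figure D3:**
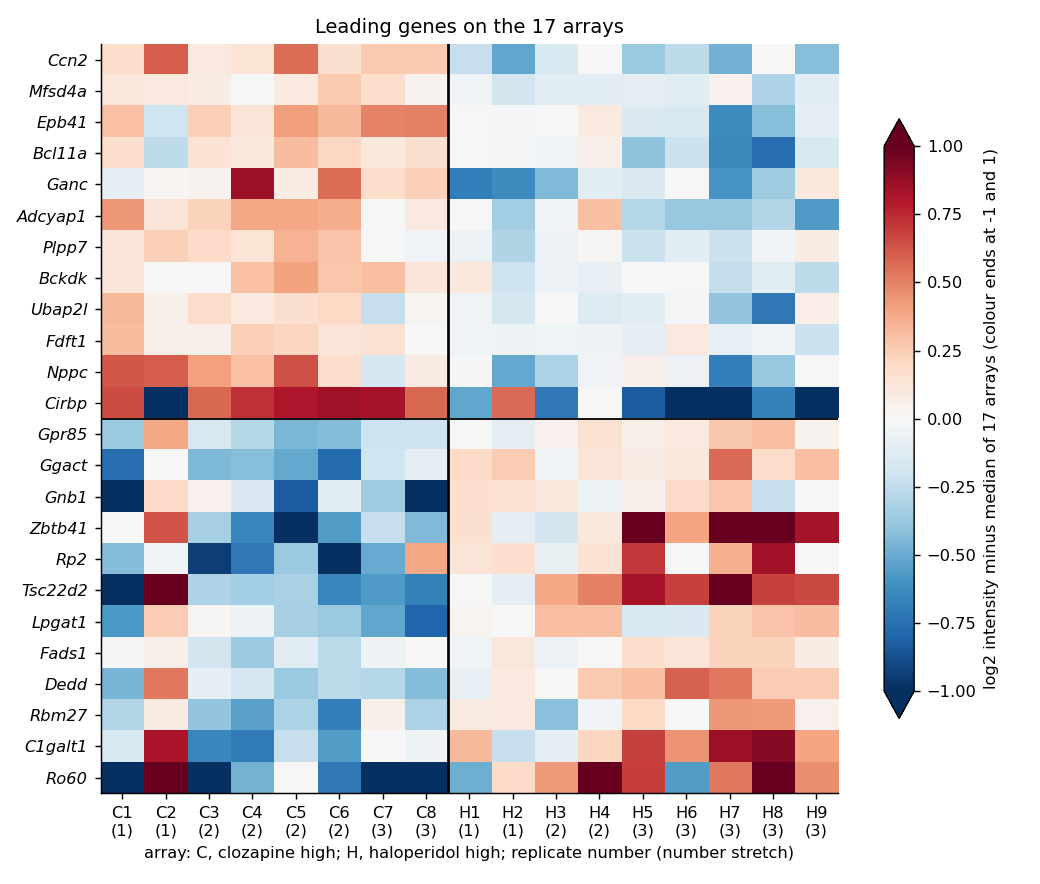
Colour gives the log2 intensity of each leading gene on each of the 17 arrays, minus the median of that gene over them, red above and blue below. The first 12 genes are those of smallest p on the clozapine side and the last 12 those on the haloperidol side, and column C2, clozapine replicate 2, carries haloperidol-like values in many rows, such as Cirbp at 9.90 and Tsc22d2 at 12.30.

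On the haloperidol side the 12 genes of smallest p had differences from -0.94 to -0.21, and none was called (limma adjusted p from 0.0777 to 0.150). Gpr85, an orphan G protein-coupled receptor of brain, ran from 11.94 to 12.79 (median 12.15) with clozapine and from 12.30 to 12.70 (median 12.46) with haloperidol. Clozapine replicate 2 was the highest of the 17, and the other clozapine arrays lay below every haloperidol array. The difference was -0.31 ± 0.070. Fads1, a desaturase that makes long polyunsaturated fatty acids, ran from 13.17 to 13.59 and from 13.47 to 13.76, a difference of -0.21 ± 0.057 that was below 0 in each stretch. The G protein beta subunit gene Gnb1 gave -0.56 ± 0.13 on its representative probe set but 0.82 ± 0.32 and 0.56 ± 0.24 on its other ones, so the gene has no single direction here.

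Several of these genes act on RNA, lipids or sugar chains. Ro60, which binds small noncoding RNAs, was at -0.94 ± 0.26 and, on its second probe set, at -1.22 ± 0.30. Rbm27, an RNA-binding protein gene, was at -0.39 ± 0.11, the acyltransferase gene Lpgat1 at -0.43 ± 0.11 and C1galt1, which builds the core of O-linked sugar chains, at -0.58 ± 0.16. Ggact, an enzyme of crosslinked-protein breakdown, was at -0.60 ± 0.14 and Rp2, a GTPase activator of ciliary transport, at -0.74 ± 0.18. Tsc22d2, a leucine zipper gene, ran from 9.91 to 12.30 with clozapine and from 10.89 to 12.59 with haloperidol, at -0.91 ± 0.24. The zinc finger gene Zbtb41 was at -0.87 ± 0.21. Dedd, a death effector domain gene, was at -0.44 ± 0.12, with 0.60 ± 0.25 on its other probe set. All 3 stretches had the same sign for 6 of the 12 haloperidol-side genes and 10 of the 12 on the clozapine side.

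The same drug pair at the lower levels, on arrays that the high comparison did not use, is given here beside the high values that chose the leading genes. At medium 11 of the 12 clozapine-side genes and 11 of the 12 haloperidol-side genes had the sign they had at high, and 0 and 7 of them an unadjusted p under 0.05. Over all probe sets 3.72% reached that p at medium above 0 and 2.54% below 0. At low 5 and 11 of the leading genes had the sign they had at high. The share of all genes that keep their sign is not given here. Genes that vary together over arrays are also not separate tests, so these counts describe the chosen genes only. Tsc22d2 was at -0.59 ± 0.23 at medium and -0.22 ± 0.23 at low, Cirbp at 0.45 ± 0.30 and 0.089 ± 0.29, and Mfsd4a at 0.07 ± 0.047 and -0.04 ± 0.046. Because the genes were chosen for small p-values at high, no test of high against the lower levels is given for them.

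**Figure D4:**
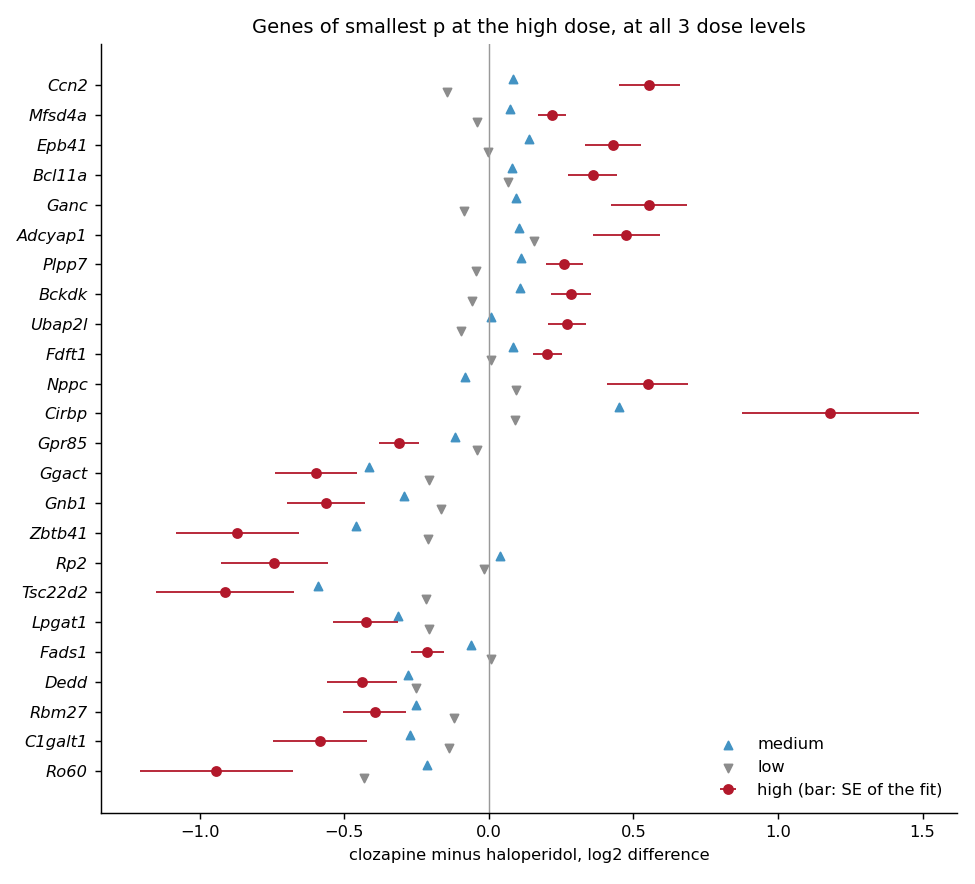
The log2 difference of clozapine minus haloperidol is plotted for the 24 leading genes at high (red circles, bars 1 SE), medium (blue upward triangles) and low (grey downward triangles). The genes were chosen on the high values, which favours distances from 0 at that level; Cirbp is at 1.18, 0.45 and 0.089.

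Beside vehicle, haloperidol was the drug farther away for 9 of the 12 clozapine-side and 8 of the 12 haloperidol-side genes. The share over all genes is not given here, and these genes were chosen on differences that use the same haloperidol arrays. The counts therefore describe the chosen genes only. Limma called 5 probe sets (0.0268%) for high haloperidol against vehicle. They were Mfsd4a (-0.28), Fdft1 (-0.27), Bckdk (-0.34) and Epb41 (-0.46), where high clozapine was at -0.06, -0.07, -0.05 and -0.03, and a probe set of Homer1. For Nppc the drugs lay on either side of vehicle, clozapine at 0.30 and haloperidol at -0.25, and for Adcyap1 at 0.32 and -0.15. Haloperidol against vehicle and the direct contrast share the haloperidol arrays, so these values are not independent of each other.

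Clozapine replicate 2 decided how many probe sets were called. Without it limma called 316 (1.7%), 122 higher with clozapine (0.655%) and 194 lower (1.04%), of which 126 have no gene symbol. Among the leading genes 11 of the 12 clozapine-side and all 12 haloperidol-side ones were then called, Gpr85 at -0.40 ± 0.059 (adjusted p = 0.000143), Epb41 at 0.50 (adjusted p = 0.00269), Cirbp at 1.49 (adjusted p = 0.00265) and Ccn2 at 0.51 (adjusted p = 0.00625). With stretches as a term as well, 439 were called, 289 of them among the 316. With blocks as a term instead 1 was called, and with the beta-actin ratio 2. Taking 1 probe set per gene gave 120 called genes, 70 on the clozapine side (0.691%) and 50 on the other (0.494%). From the gene lists described below these held Npy, Gabrb1, Pik3r1, Klf9, Baiap2, Vwf and Ndufs7 on the clozapine side and Maoa, Ctnnb1 and Fads1 on the other, besides Ccn2 and Fdft1. Of 29 list medians 5 turned sign without it and 10 others moved by more than 1.5 times. The dopamine list went from 0.0036 to -0.041, with 4 of 11 above 0, the serotonin list from 0.0021 to -0.053 and GABA-A subunits from -0.020 to 0.024. Oligodendrocyte markers went from 0.063 to 0.025, microglia markers from 0.057 to 0.020 and glucocorticoid-responsive genes from 0.031 to 0.065. Immediate early genes (-0.074) and endothelial and mural markers (0.12) moved less. Without clozapine replicate 2 the difference narrowed for Ccn2 (0.55 to 0.51), Nppc (0.55 to 0.51) and Plpp7 (0.26 to 0.25). It widened for the other leading genes. The array was singled out by its values on these same genes, which favours calls without it. Calls without it are therefore given as values beside the others.

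The medians of the gene lists described from here on changed with the setting. Their sign turned for 11 of the 29 with blocks as a term, for 11 with stretches as a term, for 15 with the beta-actin ratio as a covariate and for 9 without haloperidol replicates 7 and 8.

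Genes of the receptors that the drugs bind were measured in cortex with few large differences. Of 11 dopamine receptor and signalling genes tested, 6 were above 0 and 0 were called, with a median of 0.0036 beside 0.025 over all genes tested, of which 58.5% were above 0. Drd1 was at 10.32 ± 0.29 and 10.28 ± 0.28 (SD, n = 8 and 9), a difference of 0.04 ± 0.14. Drd2, the receptor that both drugs block, was at 9.05 ± 0.15 and 9.25 ± 0.35 (SD, n = 8 and 9), a difference of -0.19 ± 0.15. Their exact permutation p-values were 0.774 and 0.166. Pde10a, a cyclic nucleotide phosphodiesterase abundant in striatum, was at -0.24 ± 0.11, and Maoa, which breaks down monoamines, at -0.18 ± 0.069. These were 2 of the 11 at an unadjusted p under 0.05 on the lower side, where all genes had 3.71%.

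Serotonin receptor genes gave 5 tested of 14 listed, 3 above 0, none called and none at an unadjusted p under 0.05. Htr2a, the serotonin receptor that clozapine blocks strongly, ran at 11.92 ± 0.24 and 12.00 ± 0.27 (SD, n = 8 and 9), a difference of -0.08 ± 0.14. Htr2c was at 0.06 ± 0.16 and Htr7 at -0.12 ± 0.14. The muscarinic, histamine and adrenergic receptor genes lay mostly on the clozapine side, 9 of 10 above 0 with a median of 0.18, and 1 had an unadjusted p under 0.05, beside 7.06% of all genes on that side. Hrh3, a histamine receptor on nerve endings, was at 0.26 ± 0.12 and Chrm1, the main cortical muscarinic receptor, at 0.26. Adra2a, an adrenergic receptor, was at 0.23 ± 0.12. The direction of the list did not hold throughout. Its median was 0.069 with stretches as a term and 0.037 with blocks as a term, where 6 of 10 were above 0, but -0.061 with the beta-actin ratio as a covariate. Within the stretches it was -0.20, 0.056 and 0.21.

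Immediate early genes, transcribed within minutes of neuronal firing, lay mostly on the haloperidol side at the high level, but not at the lower levels. Of 23 tested, 4 were above 0 and 19 below, with a median of -0.070, where 58.5% of all genes were above 0. None was called, and 2 had an unadjusted p under 0.05 on the lower side, beside 3.71% of all genes there. Fos, an AP-1 factor, ran from 8.86 to 11.22 (median 10.53) with clozapine and from 8.68 to 11.58 (median 11.13) with haloperidol, at -0.40 ± 0.40. The ranges coincided nearly in full. Egr1 was at -0.35 ± 0.18, Egr2 at -0.42 ± 0.36 and Klf4 at -0.39 ± 0.18. Arc (-0.0023 ± 0.28), Nr4a1 (-0.0020 ± 0.22), Junb (-0.05 ± 0.20) and Bdnf (-0.02 ± 0.13) showed nearly equal means. Nr4a3, a nuclear receptor of the same class, ran from 11.57 to 12.30 and from 12.07 to 12.37. Its difference was -0.30 ± 0.16 (exact permutation p = 0.00671, limma adjusted p = 0.436), and its other probe set gave -0.23 ± 0.15. The list's mean level per array, relative to the 63 arrays, ran from -0.56 to 0.045 with clozapine and from -0.53 to 0.20 with haloperidol. With blocks as a term 8 of 23 were above 0. The median was -0.11 with stretches as a term and -0.20 without haloperidol replicates 7 and 8, and within the stretches it was -0.072, -0.25 and 0.012. For the same drug pair at medium, 18 of 23 were above 0 with a median of 0.11. At low 14 of 23 were above 0, with a median of 0.035.

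Homer1 encodes a scaffold of the postsynaptic density, and neuronal activity induces its short forms. All 5 of its probe sets were lower with clozapine, from -0.39 to -0.17, and none was called. The representative one ran from 14.14 to 14.54 (median 14.31) with clozapine and from 14.38 to 14.69 (median 14.54) with haloperidol, at -0.21 ± 0.071 (exact permutation p = 0.00346, limma adjusted p = 0.235). A second probe set, the 1 of Homer1 called for haloperidol against vehicle, ran from 12.09 to 13.49 and from 12.77 to 13.69, at -0.39 ± 0.16. Both drugs were above vehicle on it, clozapine by 0.51 and haloperidol by 0.90, and on another by 0.35 and 0.57. On the remaining ones, the representative one first, clozapine minus vehicle was -0.0039, 0.0087 and 0.0082, and haloperidol minus vehicle 0.20, 0.26 and 0.18. Clozapine minus haloperidol over the 5 probe sets ran from -0.16 to 0.48 at medium and from -0.03 to 0.32 at low. Which Homer1 forms the probe sets read was not given in the sources used here.

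Feedback genes of the MAP kinase pathway, which dampen growth factor signals, had 4 of 12 above 0 and a median of -0.019. The direction turned with stretches (0.036) or blocks (0.042) as a term, where 7 of 12 were above 0. Etv5, an ETS factor that follows MAP kinase activity, ran from 11.03 to 11.40 (median 11.19) with clozapine and from 11.06 to 11.69 (median 11.52) with haloperidol, at -0.26 ± 0.097 (exact permutation p = 0.0115, limma adjusted p = 0.286). Its relative Etv4 was at -0.33 ± 0.16, and Etv1 at 0.19. The phosphatase genes Dusp1 (-0.03) and Dusp6 (-0.00090) had nearly equal means.

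Sterol and fatty acid synthesis genes split, 17 of 29 above 0 with a median of 0.021, close to that of all genes. Enzymes of cholesterol synthesis stood at its upper end: Ebp at 0.23, Mvd at 0.22, Fdft1 at 0.20 and Sqle at 0.20, each at an unadjusted p under 0.05. Other steps of the same route were near 0, such as Cyp51 (-0.01), Lss (-0.02), Idi1 (-0.00090) and Dhcr7 (-0.02). The desaturases Fads1 (-0.21), Scd2 (-0.15) and Scd (-0.12) were on the other side.

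Interneuron genes had 12 of 15 above 0, a median of 0.062, and 3 at an unadjusted p under 0.05 on the clozapine side. Over all genes tested these shares were 58.5% and 7.06%. The median was 0.028 with stretches as a term and 0.0090 with the beta-actin ratio, which differed between the drugs, as a covariate. Npy, neuropeptide Y, ran from 13.40 to 13.88 (median 13.66) with clozapine and from 13.36 to 13.68 (median 13.43) with haloperidol, at 0.20 ± 0.062 (exact permutation p = 0.00765, limma adjusted p = 0.185). It was 0.12, 0.20 and 0.12 in the 3 stretches. Calb1, a calcium buffer, was at 14.27 ± 0.052 and 14.04 ± 0.30 (SD, n = 8 and 9), where haloperidol replicate 8 alone was at 13.29. Sst, somatostatin, was at 0.17. The transmitter enzymes Gad1 (0.03) and Gad2 (0.04) and the calcium buffer Pvalb (0.0023) had nearly equal means.

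Amino acid transmitter receptors gave single members at the edges. Gabrb1, a GABA-A receptor subunit, ran from 12.77 to 13.42 with clozapine and from 12.29 to 13.03 with haloperidol, at 0.38 ± 0.11 (limma adjusted p = 0.170), while Gabra2 was at -0.27 ± 0.12. Over 8 GABA-A subunits 4 were above 0. The presynaptic glutamate receptor gene Grm2 was at 0.29 ± 0.13, and the vesicular transporter gene Slc17a6, which is typical of thalamus, at 0.31 ± 0.12. Ionotropic glutamate receptor genes had 7 of 13 above 0 and a median of 0.00062, with Grik4 at 0.20 ± 0.097 and Grin2c at -0.13 ± 0.094.

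Akt, Gsk3 and beta-catenin signalling, a route that D2 receptors feed into, had 8 of 16 above 0. Pik3r1, a regulatory subunit of PI3 kinase, ran from 9.63 to 11.01 (median 10.70) with clozapine and from 8.51 to 10.72 (median 9.90) with haloperidol, at 0.98 ± 0.26 (limma adjusted p = 0.128). Its lowest clozapine array was replicate 2, and its differences within stretches were -0.34, 0.51 and 1.72. Ctnnb1, beta-catenin, was at -0.49 ± 0.15, with replicate 2 the highest of all at 16.35. Akt1 (-0.10), Gsk3a (-0.10) and Gsk3b (0.0021) had small differences.

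Clock and steroid-responsive genes were mixed. Dbp, a clock output factor, was at 0.28 ± 0.098 and the repressor gene Bhlhe41 at 0.21 ± 0.078, while Rora was at -0.37 and Npas2 at -0.21, with 12 of 17 clock genes above 0. Klf9, which glucocorticoids induce, ran from 13.97 to 14.23 (median 14.14) with clozapine and from 13.95 to 14.03 (median 13.98) with haloperidol. The haloperidol arrays were tightly grouped, and the difference was 0.13 ± 0.041 (limma adjusted p = 0.186). Sgk1 was at 0.14 ± 0.070 and Fkbp5 at 0.06, and 7 of 13 genes of this list were above 0.

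Synaptic lists had medians near that of all genes. Of 19 postsynaptic density genes 11 were above 0, with a median of 0.0056 that turned to -0.11 with stretches as a term (6 of 19 above 0), -0.10 with the beta-actin ratio and -0.10 without haloperidol replicates 7 and 8. The list included Baiap2 at 0.22 ± 0.083 and Shank1 at -0.14. Of 20 presynaptic vesicle genes 11 were above 0 and none had an unadjusted p under 0.05; Cplx2 (-0.25 ± 0.12) and Syt4 (-0.18 ± 0.10) had the smallest p. Regulators of G protein signalling had 9 of 14 above 0, with Rgs12 at 0.23 ± 0.11 and Rgs3 at 0.20 ± 0.077. Potassium channel genes had 8 of 19 above 0, with Kcnip3 at 0.22 ± 0.074, Kcnh1 at 0.17 ± 0.061 and Kcnd3 at -0.28. Striatal neuron markers had 6 of 13 above 0, Pdyn at -0.30 ± 0.16 and Penk at 0.07 ± 0.12.

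**Figure D5:**
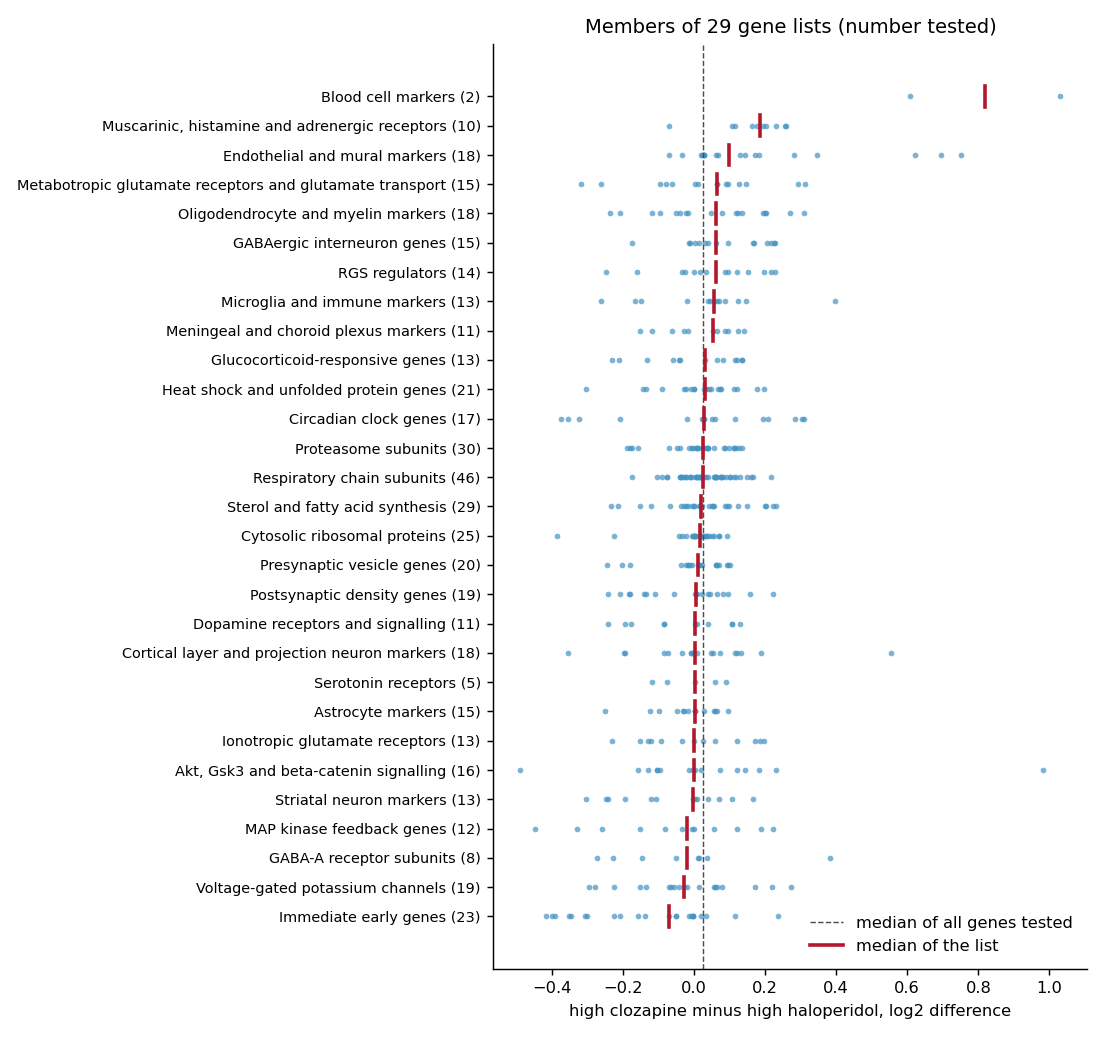
Each blue point is the log2 difference of 1 tested member of a gene list, high clozapine minus high haloperidol, with the number tested in parentheses; the red bar is the list's median and the dashed line the median of all genes tested, 0.025. Immediate early genes have the lowest median, -0.070, and the 2 blood markers the highest, 0.82.

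Vessel and blood genes had the largest differences among the cell type lists. Vwf, made by endothelial cells, ran from 10.91 to 11.89 (median 11.63) with clozapine and from 9.31 to 11.81 (median 10.88) with haloperidol, at 0.70 ± 0.22 (limma adjusted p = 0.195). Mcam, an endothelial and pericyte adhesion molecule, was at 0.62 ± 0.19, the smooth muscle gene Tagln at 0.75, the pericyte receptor gene Pdgfrb at 0.35 and the glucose transporter gene Slc2a1 at 0.28. Other defining members were near 0, among them Kdr (0.03), Flt1 (0.03), Tie1 (0.02), Acta2 (0.02) and Rgs5 (-0.03). With stretches as a term 13 of 18 were above 0. Haloperidol replicate 8, 1 of the arrays of low correlation, was the lowest of the 17 for Vwf.

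Both blood markers tested, of 9 listed, were above 0. Alas2, the haem enzyme of red cells, ran from 9.92 to 11.61 (median 10.70) with clozapine and from 9.07 to 10.36 (median 9.81) with haloperidol, at 1.03 ± 0.30 (limma adjusted p = 0.170). Hbb, beta-globin, ran from 15.19 to 16.52 and from 14.80 to 15.98, at 0.61 ± 0.25. Both kept 1 direction in the 3 stretches, 0.86, 0.998 and 1.04 for Alas2. With blocks as a term Alas2 was at 0.57 and Hbb at 0.34. At the low level both were below 0, at -0.14 ± 0.28 and -0.27 ± 0.24. Against vehicle Alas2 was at 1.03 for clozapine and -0.0042 for haloperidol. Hbb shares near-identical copies in the rat genome, and its probe set may read several. How blood in the tissue bears on the drug difference was not tested.

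Glial lists gave no calls. Oligodendrocyte genes had 10 of 18 above 0, with Enpp2 at 0.19 ± 0.072 and Mal at 0.20 ± 0.12 beside Mbp at -0.02. Astrocyte genes had 8 of 15 above 0, with the water channel gene Aqp4 at -0.25 ± 0.12 and Gfap at 0.06. Microglia and immune genes had 9 of 13 above 0, with Cx3cr1 at -0.26 ± 0.16 and Aif1 at -0.15 ± 0.099. Meningeal and choroid plexus genes had 6 of 11 above 0, with Ptgds at 0.12 ± 0.10 and Mgp at 0.14 ± 0.13. Heat shock and unfolded protein genes had 14 of 21 above 0, with Herpud1 at 0.20 ± 0.096 and Dnajb9 at -0.30 ± 0.13.

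Housekeeping complexes lay at the overall median. Respiratory chain subunits had 31 of 46 above 0 and a median of 0.024, with Ndufs7 at 0.22 ± 0.068 and Ndufb10 at 0.15 ± 0.060. Proteasome subunits had 20 of 30 above 0 and a median of 0.025, with Psmc4 at 0.12 ± 0.046 and Psmb3 at 0.13 ± 0.063. Ribosomal protein genes had 18 of 25 above 0 and a median of 0.017, with Rpl21 at -0.23 ± 0.11 and Rpl3 at 0.07 ± 0.043.

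The genes whose levels ran most like 3 leading genes over the 17 arrays are given as a description, since the arrays share groups and number stretches. Ccn2 ran most like Plpp7 (Pearson r = 0.805), Exosc4 (0.757) and Adcyap1 (0.757), and within the groups these values were 0.507, 0.494 and 0.356. Mfsd4a ran most like Babam2 (0.812), Osbpl9 (0.803) and Kidins220 (0.803). Gpr85 ran most like Elavl2 (0.915), Pgpep1 (0.914) and Evi5 (0.914), which stayed at 0.862 to 0.883 within the groups.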

How the data were processed

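Affymetrix rat arrays gave 1 value per probe set and array. The deposited series table holds linear intensity values, as its header and values show. After trimming 2% at each end every array of the table has a mean near 2501, so the arrays had been scaled to each other. The software, background correction and summary method are not stated by the labels or header used here. Of 31099 probe sets, 57 controls were left out, and 20826 have 1 gene symbol in GEO's platform annotation (436 have several), updated through RefSeq gene identifiers.

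Intensities of the 63 neuroleptic arrays were quantile-normalised, raised to a floor of 32 (5.74% of values in the 17 arrays lay below it) and taken to log2. The 60% of probe sets with the highest mean were kept. Limma 3.58.1 in R 4.3.3 fitted 7 group means with a shared residual spread, without covariates. No pair of arrays held identical values (0 found). The median SE of the high difference was 0.105, and the number of arrays limits the precision. The fit was tested on simulated data.

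In each direction the 12 genes of smallest p were named, called ones first, with up to 3 called members or else the 2 of smallest p of each of 29 gene lists, and 22 genes of prior interest, of which 19 were tested. For these 19 an exact permutation test was run over 24310 arrangements, without regard to number block or stretch. Other list members are named as examples after their values were seen. The members, lists and named genes were chosen with earlier results of these data known. The number stretches, the beta-actin covariate, the joint removal of 2 haloperidol arrays and the combinations without clozapine replicate 2 were chosen after seeing the data. Figures were drawn with matplotlib.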

Additional observations from a re-analysis of the deposited data

Results flagged for a closer look

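Among 178 groups of 8 or 9 arrays examined for 1 array far from the others (Dixon's 95% criterion on the log2 values of the named genes), 18 had such an array. Chance gives about 1 in 20 for independent groups. These groups share the same arrays and hold genes that vary together, so the count cannot be set against that rate. Clozapine high replicate 2 was the outlying array in 11 of the 18. It was lowest of its group for Bcl11a (12.58, nearest 12.95), Cirbp (9.903, nearest 12.24), Pik3r1 (9.627, nearest 10.48) and Baiap2 (12.64, nearest 13.11). It was highest for Gpr85 (12.79, nearest 12.24), Tsc22d2 (12.3, nearest 10.66), Dedd (13.36, nearest 12.74), C1galt1 (12.22, nearest 11.4), Ro60 (11.11, nearest 9.605), Maoa (13.92, nearest 13.49) and Ctnnb1 (16.35, nearest 15.3).

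Clozapine high replicate 6 was lowest for the activity-regulated genes Fos (8.86, nearest 10.12) and Egr1 (13.64, nearest 14.19), and replicate 3 for Hrh3 (12.89, nearest 13.15). Haloperidol high replicate 7 was highest for Gabra2 (13.31, nearest 12.92) and lowest for Rgs3 (10.5, nearest 10.85). Replicate 8 was lowest for Calb1 (13.29, nearest 14.02) and highest for Aif1 (11.17, nearest 10.62).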

How the results depend on the processing

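The call of Ccn2 kept its direction in every alternative run but not its side of the threshold. Its difference was 0.5548 with 0 calls over all probe sets both for the 17 arrays alone (adjusted p = 0.264) and with no filter on dim probe sets (adjusted p = 0.0751). With 0 calls it was 0.4905 with number blocks as a term, 0.4793 with that term and the 17 arrays alone, 0.5069 with blocks as a random block, 0.5221 with sample number as a covariate, 0.5103 with stretches as a term, 0.5559 with the beta-actin ratio and 0.5633 without haloperidol replicates 7 and 8. Within single blocks or stretches it was not called. It was 0.766 in block 1, where 91 probe sets were called, and in stretch 1, where 0 were, 0.1926 in block 2 (3 called), 0.3143 in stretch 2 (5 called) and 0.5722 in stretch 3 (3 called). Why block 1 gave more calls was not tested. Blocks 3 and 4 each hold 1 of the drugs only, so there block and drug cannot be told apart.

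Leaving out 1 array at a time gave from 0 to 316 calls, and differences of Ccn2 from 0.5088 to 0.589. Without clozapine replicate 2 and with a further term, calls came to 1 with blocks (Ccn2 at 0.431), 439 with stretches and 2 with the beta-actin ratio (Ccn2 at 0.4879). The test of the high difference against the lower levels gave 1 call with blocks as a term, 1 with sample number as a covariate and 1 with no filter, in place of 0. Taking the mean of a gene's probe sets gave 2 calls, Ccn2 and Epb41. The deposited values without normalisation turned the split of probe sets at an unadjusted p under 0.05 from 55.1% to 47.9% on the clozapine side. Over 3416 alternative values of the other 88 named genes, none of them called in limma over all arrays, 160 had the opposite sign, 81 of them within single blocks or stretches, and 0 of the 160 were called there. These values came from 49 genes. In the same direction 64 values came past the threshold, and 140 values moved by more than their spread. No paired analysis was possible because the labels give the arrays no replicate numbers, and the ones used here follow the order of the series.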
